A study of Mus musculus with 6 samples.

Results

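The genes described here were 45 protein-coding marker genes of lung epithelium, 17 of the airway, 13 of the alveolus and 15 of epithelium in general, out of 21755 protein-coding genes annotated on 20 chromosomes. All 45 were matched by symbol. A gene had a promoter peak where a peak of a library came within 1 kb of any of its transcription start sites (TSSs), and a peak was distal where its midpoint lay more than 3 kb from every protein-coding TSS and was then given to the gene with the nearest one. The mark, acetylation of lysine 27 of histone H3 (H3K27ac), was mapped by HT-ChIPmentation in alveolar macrophages (AMs), the resident macrophages of the alveolar lumen. The cells were obtained by bronchoalveolar lavage of 9-wk-old wild-type C57BL/6J mice and sorted by flow cytometry. There was 1 library with an Active Motif antibody and 2 with a Cell Signaling antibody (replicate 1, called CS1, and replicate 2, called CS2), each with an input library, made without antibody, which entered only when peaks were called. All the mice were untreated and of the same genotype, so the design holds no comparison of conditions, and the question for these genes was in which of the libraries an epithelial gene carried the mark.

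H3K27ac lies at the promoters and enhancers of genes that are active in a cell. The airway is lined by secretory (club and goblet), ciliated and basal cells, and the alveolus by type 2 cells, which make surfactant, and type 1 cells, which carry gas exchange. None of these is a macrophage, but AMs lie in the alveolar lumen beside the type 1 and type 2 cells and take up surfactant. Each library came from many cells, so a mark on few cells and a weaker mark on many cells cannot be told apart.

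The labelled cell type was checked against its own genes. Of 20 AM marker genes, 19 had a promoter peak in the Active Motif library, 20 in CS1 and 20 in CS2, the exception being Krt79 in the Active Motif library. The shares of all protein-coding genes were 41.3%, 48.2% and 49.2% in that order of libraries. The 3 lists held 36364 to 56175 peaks that covered 26.1 to 59.9 Mb. CS1 stood apart from the other libraries for the epithelial genes, as set out next, and counts are therefore given for each library on its own. CS1 and CS2 were made with the same antibody. The labels do not give the sonication or the sequencing run of each library and the peak lists do not give its depth, and their part in the results was not tested.

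Epithelial promoters were marked mostly in CS1. Of the 45 genes, 29 (64.4%) had a promoter peak in CS1, against 7 (15.6%) in CS2 and 2 (4.44%) in the Active Motif library. Over all protein-coding genes the shares were 48.2% in CS1, 49.2% in CS2 and 41.3% in the Active Motif library, so the epithelial genes were above the share of all genes in CS1 and below it in the other libraries, although CS1 and CS2 marked nearly the same share of all genes. With a q-value of at most 1e-05, or equal numbers of peaks, CS1 marked 8 of 17 airway, 4 of 13 alveolar and 6 of 15 general genes. The share of all genes was then 45.9%, and the epithelial genes as a set were not above it. A promoter peak in CS1 alone was found at 24 epithelial genes (53.3%), against 1.35% of all genes. That count fell to 14 of the 45 when peaks were limited to a q-value of at most 1e-05 (against 0.708% of all genes) and also when the same number of peaks was taken from each library (against 0.680%). A promoter peak in CS2 alone was found at 2 (4.44%), Etv5 and Pdpn, against 2.25% of all genes. Both Cell Signaling replicates marked 5 (11.1%), against 46.9% of all genes, and all 3 libraries marked 2 (4.44%), Tppp3 and Abca3, against 41.2%. The other 14 (31.1%) had no promoter peak in any library, against 49.4% of all genes. Without CS1, 7 of the 45 had a promoter peak. No test was made, since the peak lists give 1 yes or no per gene and library and genes are not replicates.

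**Figure D1:**
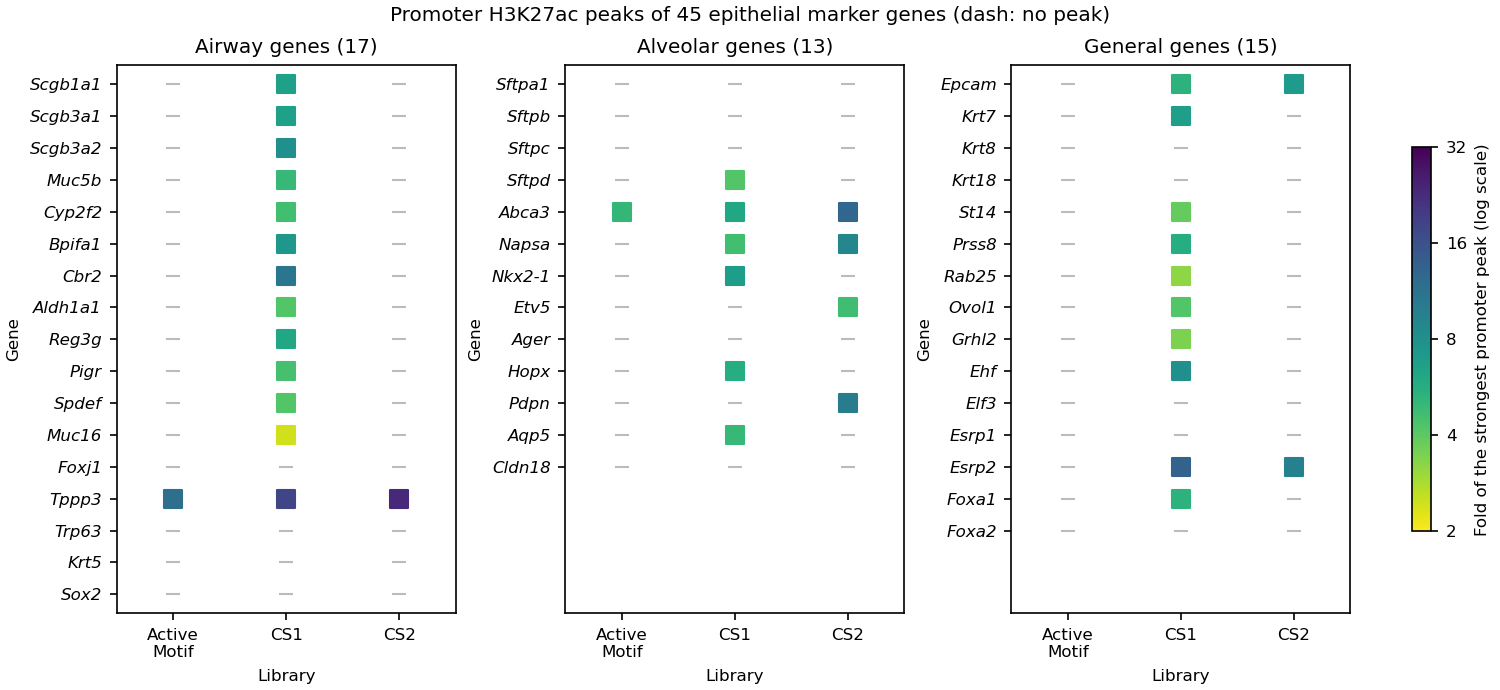
Fold of the strongest promoter peak (colour, log scale) of each of the 45 genes (vertical axis) in each library (horizontal axis), in 1 panel for each class, with a dash where there was no promoter peak. The squares fill the CS1 column for the first 12 airway genes, and Tppp3 and Abca3 are the genes with squares in all 3 columns.

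The airway secretory genes all followed 1 pattern. Each of the 12 had a promoter peak in CS1 and none had one in CS2 or the Active Motif library. The shares of all genes were 48.2% in CS1, 49.2% in CS2 and 41.3% in the Active Motif library. In CS1 alone 1.35% of all genes had one. With the stricter q-value, or with equal numbers of peaks, 7 of the 12 kept their promoter peak in CS1 alone. The shares of all genes marked in CS1 alone were then 0.708% and 0.68%. The secretory genes lost were Aldh1a1, Cyp2f2, Muc16, Pigr and Spdef. The fold of a peak is its enrichment over the local background as the authors' caller wrote it, and the strongest promoter peak of each gene is given, by q-value. The secretoglobin genes, which encode the small secreted proteins that define club cells, had folds of 6.54 for Scgb1a1, 6.54 for Scgb3a1 and 8.07 for Scgb3a2 in CS1. The Scgb1a1 peak was 109 bp long, at chr19:9088007-9088115 in mm10, with its summit 102 bp upstream of the TSS. The nearest peak to the Scgb1a1 TSS was 16.03 kb away in CS2 and 90.3 kb away in the Active Motif library. For Scgb3a2 the nearest peaks were 254.6 kb away in CS2 and 254.8 kb away in the Active Motif library. For both genes the nearest peak of those libraries thus lay far past the window.

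Secreted and surface proteins of mucosal defence followed the same pattern. Muc5b, the gel-forming mucin of the airway, had a fold of 4.997 in CS1, and Muc16, a mucin of the cell surface, had 2.44, the lowest of all these promoter peaks. Bpifa1, a secreted protein of the upper airway, had 7.30, and Reg3g, an antibacterial lectin, had 6.15 with a summit 96 bp downstream of the TSS. Pigr, the receptor that carries IgA across the epithelium, had 4.52. Each of these peaks was in CS1 alone, and the nearest peak of CS2 was from 38.8 kb away (Muc16) to 3455 kb away (Reg3g).

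Enzymes of the club cell and the goblet cell factor completed the group. Cyp2f2, a cytochrome P450 of club cells, had a fold of 4.61, and Aldh1a1, which makes retinoic acid from retinal, had 4.23. Spdef, an ETS factor of goblet cells, had 4.23, with its summit 32 bp upstream of the TSS. Cbr2, a carbonyl reductase abundant in the lung, had the highest fold of the group, 10.8 (peak of 1455 bp, chr11:120732682-120734136). Cbr2 was also the exception among the 24 genes marked in CS1 alone. Its strongest promoter peak, with a summit 1715 bp upstream of the TSS, overlapped one of CS2 (chr11:120733210-120734249, fold 12.6). That CS2 peak ended 1.096 kb from the TSS and so lay just outside the window. Of the 3 promoter peaks of Cbr2 in CS1, 2 overlapped a peak of another library. All 3 libraries also had a peak near the 3′ end of Cbr2, with folds of 4.65 in the Active Motif library, 11.5 in CS1 and 12.4 in CS2. At the other 23 genes no promoter peak of CS1 overlapped a peak of another library.

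The remaining airway genes differed. Tppp3, a tubulin-binding protein gene of ciliated cells, had a promoter peak in every library. The folds were 11.8 in the Active Motif library, 18.1 in CS1 and 23.2 in CS2. Those folds exceeded the folds of 53.5%, 46.4% and 40.4% of all genes with a promoter peak in these libraries. Foxj1, the factor that switches on motile cilia, had no promoter peak, and its nearest peaks were 28.5 kb away in CS1, 28.2 kb in CS2 and 54.4 kb in the Active Motif library. The basal cell genes Trp63, Krt5 and Sox2 had none either. The nearest peak of any library was 546.3 kb away for Trp63 and 132.9 kb away for Krt5, both in CS2. Sox2, the factor that also sets airway identity in development, was different again, because its nearest CS1 peak lay 1.15 kb from the TSS, just outside the window, against 568.7 kb in CS2 and 569.1 kb in the Active Motif library. At the other side of the same threshold, the Muc16 peak reached to exactly 1 kb of the TSS and the Ovol1 peak to 936 bp.

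The alveolar genes were split. Of 13, 6 had a promoter peak in CS1 (46.2%), 4 in CS2 (30.8%) and 1 in the Active Motif library (7.69%). The CS1 share was thus near that of all genes (48.2%), and the shares in the other libraries were below theirs (49.2% and 41.3%). Among surfactant protein genes, Sftpa1, Sftpb and Sftpc had no promoter peak in any library. Sftpc, the gene most restricted to type 2 cells, had its nearest peak 17.2 kb away in CS1, 16.8 kb in CS2 and 21.1 kb in the Active Motif library. Sftpd, which is also made by airway secretory cells, had a peak of 80 bp and a fold of 4.23 in CS1 alone.

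Genes of lamellar bodies and surfactant processing were marked in more than 1 library. Abca3, the lipid transporter of lamellar bodies, had folds of 5.12 in the Active Motif library, 6.15 in CS1 and 12.8 in CS2. The CS2 peak at Abca3 (chr17:24351407-24352896) also came within 1 kb of a TSS of Abca17, so it cannot be given to 1 of these genes. Napsa, a protease that processes surfactant protein B, had folds of 4.61 in CS1 and 8.91 in CS2, where the CS2 peak covered the TSS and the CS1 peak began 138 bp from it.

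The transcription factor genes of the alveolus went in opposite ways. Nkx2-1, the factor that defines lung epithelium, had 6 promoter peaks in CS1 (the strongest with a fold of 6.92) and none in the other libraries, whose nearest peaks were 188.8 kb away in CS2 and 189.1 kb away in the Active Motif library. Etv5, an ETS factor of type 2 cells, had a promoter peak in CS2 alone, 113 bp long with a fold of 4.69. The type 1 genes were as divided. Hopx, a homeodomain protein gene, had a fold of 5.77 and Aqp5, a water channel gene, 4.997, both in CS1 alone. Pdpn, which encodes the membrane protein podoplanin, had a peak of 740 bp with a fold of 10.2 in CS2 alone. Ager, the receptor for advanced glycation end products, and Cldn18, a tight junction protein gene, had none. The nearest peaks to Ager were 4.03 to 4.22 kb from its TSS in the 3 libraries, and those to Cldn18 133.5 to 133.9 kb.

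Of the 15 general epithelial genes, 10 had a promoter peak in CS1 (66.7%), 2 in CS2 (13.3%) and 0 in the Active Motif library. The shares of all genes were 48.2%, 49.2% and 41.3%. With the stricter q-value and with equal numbers of peaks the CS1 count was 6 of the 15, against 45.9% of all genes. The CS1 share of this class was then no longer above that of all genes. Epcam, the epithelial cell adhesion molecule, had folds of 5.38 in CS1 and 7.08 in CS2. Esrp2, a splicing regulator of epithelial transcripts, had 13.5 in CS1 and 9.55 in CS2, with summits 1475 and 1484 bp upstream of the TSS, and its nearest Active Motif peak lay 1.38 kb from the TSS. These were the general genes that 2 libraries marked.

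The other 8 marked general genes were marked in CS1 alone. Krt7, a keratin of simple epithelia, had a fold of 6.84, whereas Krt8 and Krt18, the keratin pair found in nearly all simple epithelia, had no promoter peak. The membrane proteases St14 (matriptase) and Prss8 (prostasin) had 3.84 and 5.77, and Rab25, a GTPase of epithelial vesicle transport, had 3.22. Of the regulators, Ehf, an ETS factor of epithelia, had 8.07 and Foxa1, a forkhead pioneer factor, had 5.38 with 4 promoter peaks. The weakest of these regulators were Ovol1, a zinc finger factor, at 4.23 and Grhl2, the grainyhead factor of epithelial junction genes, at 3.46, each in 1 peak of 80 bp. Elf3, Esrp1 and Foxa2, relatives of Ehf, Esrp2 and Foxa1, had no promoter peak in any library. In each of these 3 pairs 1 gene was marked in CS1 and its relative was not.

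Most of these promoter peaks were weak and short. In CS1 the 29 epithelial genes with a promoter peak had a median fold of 5.38 (2.44 to 18.1) and a median peak length of 163 bp, against 19.2 and 1452 bp over the 10494 genes with one. In CS2 the 7 epithelial genes had a median fold of 9.55, against 26.9 over all 10707 genes with one. The 20 AM genes had median folds of 40.8 in CS1 and 44.1 in CS2. Weakness was shared by the genes marked in CS1 alone, epithelial or not: the 24 epithelial genes had a median fold of 5.19 and a median length of 122 bp, against 4.61 and 146 bp for all 293 such genes. Medians are over the genes with a promoter peak only, and folds were compared within a library, since background and depth may differ between libraries.

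**Figure D2:**
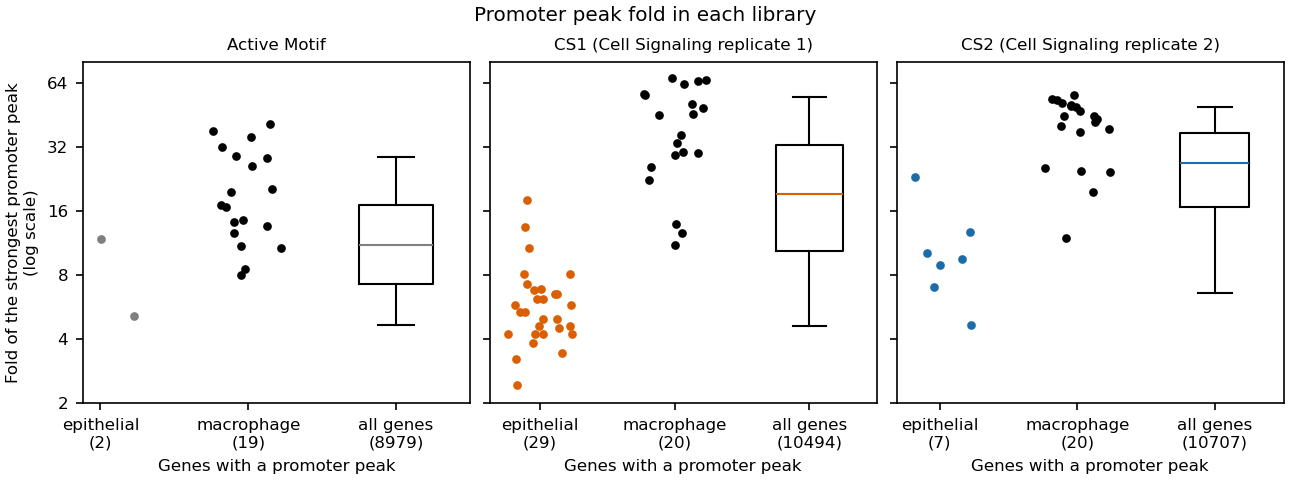
Fold of the strongest promoter peak (vertical axis, log scale) in each library for the epithelial genes (coloured points), the AM marker genes (black points) and all protein-coding genes with a promoter peak (box from the lower to the upper quartile, line at the median, whiskers from the 5th to the 95th percentile), with the number of genes in brackets. In CS1 the epithelial points lie between 2.44 and 18.1 and their median of 5.38 is below the 19.2 of all genes.

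Other gene lists were read in the same way. Of a further 57 epithelial genes, 22 had a promoter peak in CS1 (38.6%), 12 in CS2 (21.1%) and 7 in the Active Motif library (12.3%), each below the share of all genes (48.2%, 49.2% and 41.3%). Of the 57, 10 (17.5%) were marked in CS1 alone, against 1.35% of all genes. They included the airway genes Sec14l3, Krt15, Lypd2, Cckar, Agr2 and Msln and the alveolar genes Lpcat1, Gprc5a and Lmo7. Those marked in all 3 libraries were Ccdc78, Cfap126, Krt19, Lsr, Tjp3, Grhl1 and Ocln, which include cilium and cell junction genes. The CS1 share of this longer list was thus not above that of all genes, unlike the share of the 45 genes.

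Lists of markers of other cells were counted too, beside shares of all genes of 48.2% in CS1, 49.2% in CS2 and 41.3% in the Active Motif library. Of 12 endothelial genes 0 had a promoter peak in CS1 and 1 in CS2 (Vwf), and of 12 fibroblast and muscle genes 0 in CS1 and 1 in CS2 (Acta2). Of 12 lymphocyte genes 1 had one in both (Ms4a1). Of 12 granulocyte genes 2 had one in CS1 (S100a8 and Csf3r), 3 in CS2 (these and Cxcr2) and 1 in the Active Motif library (Csf3r). None of 14 genes that mark other organs had a promoter peak in any list. In these 5 lists no gene was marked in CS1 alone, a count near the background, since 1.35% of all genes were. Whether epithelial cells or their chromatin were in the sorted sample of CS1 was not tested.

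**Figure D3:**
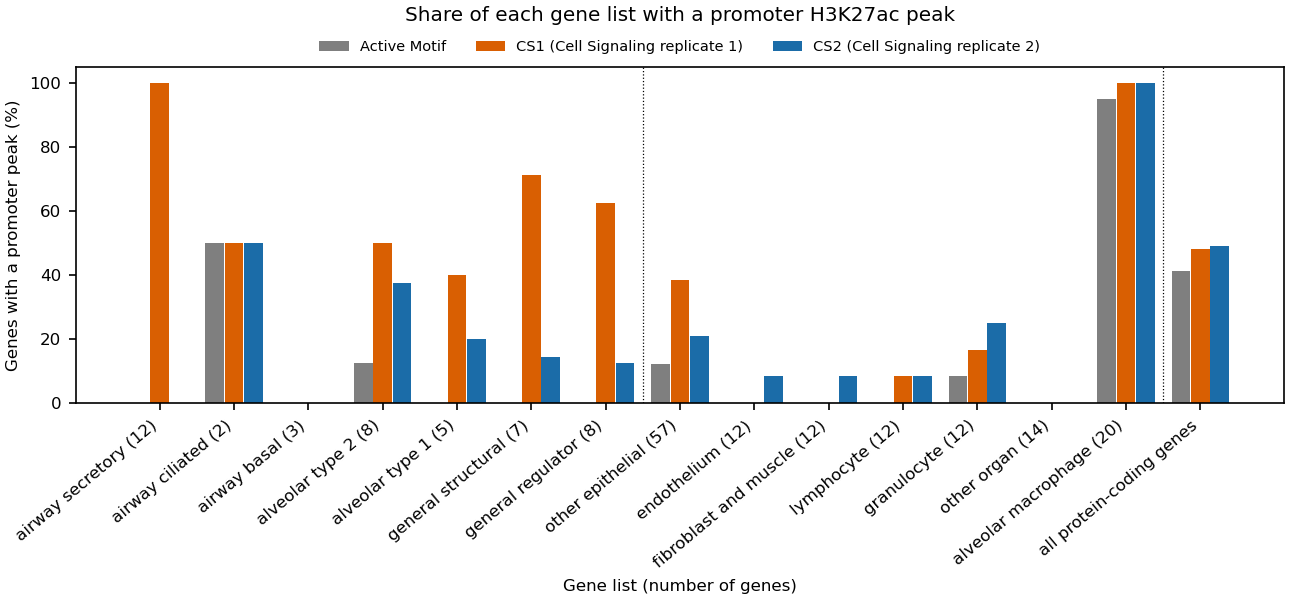
Share of the genes of each list with a promoter peak (vertical axis, percent) in the Active Motif (grey), CS1 (orange) and CS2 (blue) libraries, with the classes of the 45 genes left of the first dotted line, other lists between the lines and all protein-coding genes on the right. The airway secretory genes stand at 100% in CS1 and at 0% in the other libraries, whereas the AM genes stand at 95% to 100% in all 3.

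Promoter sequence is shown for 1 or 2 genes of each pattern of peaks, so that marked and unmarked promoters can be set side by side. RefSeq promoters (GRCm38.p6, the assembly of mm10) were matched for 29 of the 45 genes, with 35 promoters. The genes not matched were Scgb1a1, Scgb3a2, Muc5b, Foxj1, Tppp3, Trp63, Sftpc, Sftpd, Napsa, St14, Prss8, Ovol1, Grhl2, Ehf, Esrp1 and Esrp2. The 250 bases before the start are given 5′ to 3′ on the strand of the gene, with each match to a searched motif in capitals. Abca3 (chr17:24351773-24352022, plus strand) was marked in all 3 libraries, Epcam (chr17:87635729-87635978, plus strand) in both Cell Signaling replicates, Cbr2 (chr11:120732022-120732271, minus strand) and Bpifa1 (chr2:154142630-154142879, plus strand) in CS1 alone, Pdpn (chr4:143299565-143299814, minus strand) in CS2 alone and Krt5 (chr15:101712906-101713155, minus strand) in none.
Abca3: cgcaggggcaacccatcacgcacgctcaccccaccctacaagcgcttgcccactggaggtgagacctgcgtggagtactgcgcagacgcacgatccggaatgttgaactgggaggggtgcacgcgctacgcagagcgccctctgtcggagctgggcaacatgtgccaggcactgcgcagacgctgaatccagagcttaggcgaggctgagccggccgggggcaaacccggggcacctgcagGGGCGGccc
Epcam: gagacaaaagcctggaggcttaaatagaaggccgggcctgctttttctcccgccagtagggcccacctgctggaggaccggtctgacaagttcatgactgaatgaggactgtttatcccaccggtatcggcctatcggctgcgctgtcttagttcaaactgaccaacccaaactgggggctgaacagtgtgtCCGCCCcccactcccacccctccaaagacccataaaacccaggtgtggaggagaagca
Cbr2: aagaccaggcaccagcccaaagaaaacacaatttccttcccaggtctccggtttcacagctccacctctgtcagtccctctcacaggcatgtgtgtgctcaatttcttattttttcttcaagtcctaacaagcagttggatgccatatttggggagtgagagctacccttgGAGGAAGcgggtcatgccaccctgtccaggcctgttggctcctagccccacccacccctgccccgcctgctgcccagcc
Bpifa1: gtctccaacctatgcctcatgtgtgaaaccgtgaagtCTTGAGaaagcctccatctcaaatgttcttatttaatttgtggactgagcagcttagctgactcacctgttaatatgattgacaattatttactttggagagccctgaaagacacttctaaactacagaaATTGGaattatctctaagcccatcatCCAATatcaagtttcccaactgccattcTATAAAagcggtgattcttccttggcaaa
Pdpn: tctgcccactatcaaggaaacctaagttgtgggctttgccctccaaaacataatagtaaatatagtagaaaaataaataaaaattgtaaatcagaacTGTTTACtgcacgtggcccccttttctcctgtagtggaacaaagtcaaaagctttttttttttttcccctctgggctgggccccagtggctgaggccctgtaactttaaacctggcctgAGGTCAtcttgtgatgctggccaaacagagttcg
Krt5: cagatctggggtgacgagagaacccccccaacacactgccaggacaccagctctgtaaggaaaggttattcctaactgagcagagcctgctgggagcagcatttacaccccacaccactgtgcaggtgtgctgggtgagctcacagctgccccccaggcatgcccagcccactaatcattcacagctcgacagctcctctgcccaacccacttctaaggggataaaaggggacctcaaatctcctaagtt
The capitals mark a GC box in Abca3 and in Epcam, a PU.1 type motif in Cbr2, an NKX2-1 type motif, 2 CCAAT boxes and a TATA box in Bpifa1, and a forkhead motif and a nuclear receptor half-site in Pdpn, while Krt5 held none of those searched. Of these 6 windows, that of Abca3 lay in a peak of CS1 and of CS2, and the other 5 lay in no peak of any library, since the promoter peaks of Epcam, Cbr2, Bpifa1 and Pdpn sat beside the 250 bases shown and Krt5 had none.

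The same held for the promoters as a set. Of the 35 windows of 250 bases, 4 overlapped a peak of CS1 (11.4%; Abca3, Hopx, Reg3g and Spdef), 1 a peak of CS2 (2.86%; Abca3) and 0 a peak of the Active Motif library, against 43.0%, 45.9% and 33.5% of the 21044 windows of all protein-coding promoters, in that order of libraries. CpG content was low at the genes marked in CS1 alone. Their 17 windows, of 15 genes, had a median of 4 CpG (0 to 38), against 10 over all protein-coding promoters, while the 13 windows of epithelial genes marked in no library had a median of 7. Over all genes the median was 5 CpG for those marked in CS1 alone, 16 for those marked in all 3 libraries and 4 for those marked in none. Among the epithelial genes of CS1, Aqp5 with 38 CpG and Foxa1 with 21 stood above the rest of the group.

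Motifs were searched on both strands, and none of the letter strings contains another. The NKX2-1 type motif CTCAAG was in 8 of the 35 windows (22.9%), against 13.1% of all promoters, in Bpifa1, Foxa2, Hopx, Reg3g, Scgb3a1, Sftpa1, Sftpb and Spdef. The forkhead motif TGTTTAC was in 3 (8.57%; Etv5, Foxa1 and Pdpn), against 2.64%, and the grainyhead type motif AACCNGTT in 1 (Rab25; 2.86%), against 1.72%. Of motifs of factors used by macrophages, the PU.1 type motif GAGGAAG was in 3 (8.57%), against 10.4%, and the CEBP type motif TTGCNNAA in 2 (5.71%), against 9.18%. The half-site AGGTCA was in 7 (20.0%), against 12.8%. Of general elements, the TATA box (letters TATAAA) was in 4 windows (11.4%), against 11.7%. The CCAAT box was in 11 (31.4%), against 35.6%, and the GC box (letters GGGCGG) was in 10 (28.6%), against 43.0%. With 35 windows a few matches set each share, and a match is no sign that a factor was bound.

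Distal peaks showed the same excess in CS1. It had 170 distal peaks nearest to an epithelial gene, against 44 in CS2 and 24 in the Active Motif library. With equal numbers of peaks the counts were 88 in CS1, 34 in CS2 and 24 in the Active Motif library. With the stricter q-value they were 87, 31 and 12. The share of all genes with a distal peak was 26.5%, 29.7% and 19.9% with equal numbers of peaks. It was 26.4%, 29.0% and 17.1% with the stricter q-value. A count of peaks also depends on how a marked region is split. The median length over all peaks was 267 bp in CS1, 629 bp in CS2 and 341 bp in the Active Motif library. The mean per gene was 3.78 in CS1, 0.978 in CS2 and 0.533 in the Active Motif library, against 1.72, 1.59 and 0.966 over all protein-coding genes. At least 1 distal peak was found at 31 of the 45 genes in CS1 (68.9%), 13 in CS2 (28.9%) and 9 in the Active Motif library (20.0%), against 32.5%, 32.7% and 19.9% of all genes. The shares in CS2 and the Active Motif library were thus near those of all genes over the 45, but not within each class. Distal peaks were found in CS2 at 3 of 17 airway genes (17.6%), 3 of 13 alveolar genes (23.1%) and 7 of 15 general genes (46.7%), and in the Active Motif library at 1, 2 and 6 of them. In peaks, the airway genes had 53 in CS1, 9 in CS2 and 2 in the Active Motif library, the alveolar genes 42, 8 and 4, and the general genes 75, 27 and 18.

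Most of the distal peaks of CS1 had no partner. Of its 170, 127 (74.7%) overlapped no peak of another library, against 19.8% of all 37485 distal peaks of CS1. The share was 90.6% for the airway genes, 83.3% for the alveolar genes and 58.7% for the general genes. In CS2, 16 of the 44 (36.4%) had no partner, against 43.6% of all its distal peaks, and in the Active Motif library 0 of 24, against 0.552%. By the position of the midpoint, of the 170, 122 lay outside every protein-coding gene, 30 in the gene itself and 18 in another protein-coding gene. Peaks outside protein-coding genes are called intergenic here. Non-coding genes were not considered, so such a peak may lie in one. The nearest gene is thus a rule of distance and not a measured link.

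**Figure D4:**
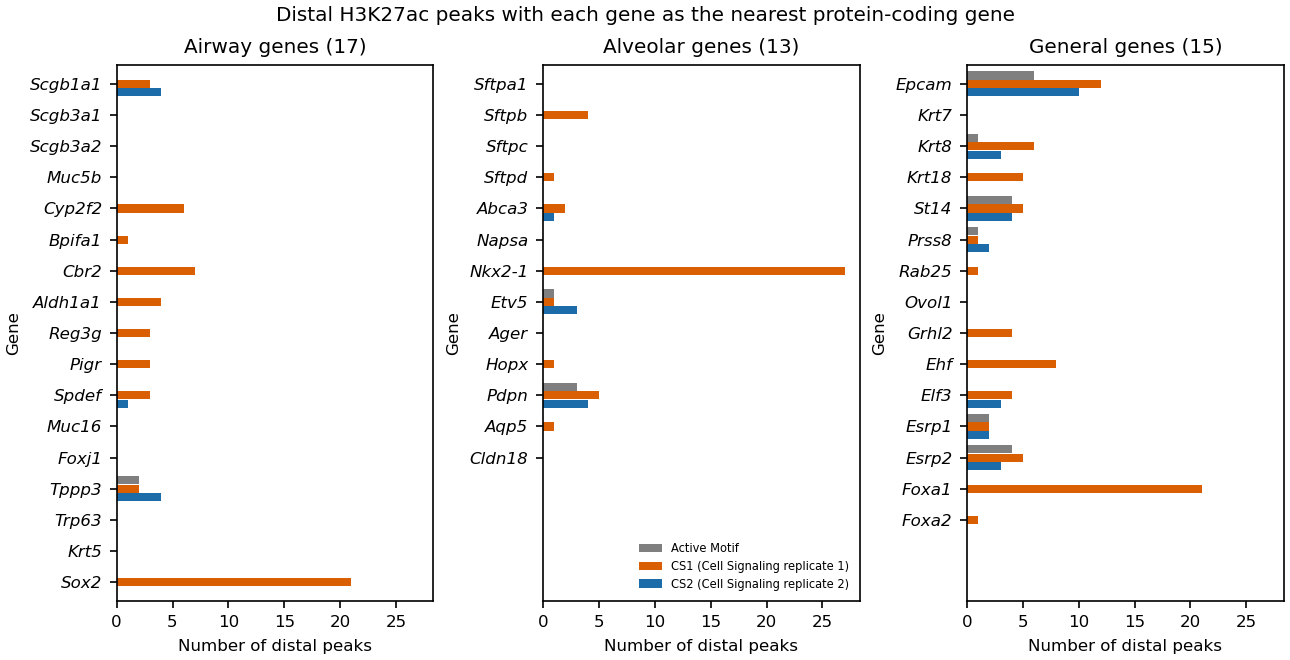
Number of distal peaks (horizontal axis) for which each of the 45 genes (vertical axis) is the nearest protein-coding gene, in the Active Motif (grey), CS1 (orange) and CS2 (blue) libraries. Nkx2-1 with 27, Sox2 with 21 and Foxa1 with 21 have the longest bars, all in CS1, whereas Epcam has 6, 12 and 10.

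The peaks of CS1 gathered around 3 transcription factor genes. Nkx2-1 had 27 distal peaks in CS1, over 22.9 kb, with folds of 2.90 to 8.84, and 26 of them were intergenic. Sox2 had 21, all intergenic and all downstream of its 5′ end, with folds of 2.75 to 8.84. Foxa1 had 21, with folds of 2.29 to 9.61, of which 4 lay in its own exons and 16 were intergenic. None of these 69 peaks overlapped a peak of another library, and these genes had 0 distal peaks in CS2 and in the Active Motif library. Among all protein-coding genes without a distal peak in those 2 libraries, Nkx2-1, Sox2 and Foxa1 came in places 2 to 4 by their number in CS1, after Klf5 with 32. Sox2 thus had the mark around it in CS1 although it counted as having no promoter peak.

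Smaller groups of distal peaks in CS1 alone were found at Ehf (8), Cbr2 (7), Cyp2f2 (6), Krt18 (5), Sftpb (4), Aldh1a1 (4) and Grhl2 (4). Those of Cbr2 lay 11.9 to 14.5 kb from its TSS, and those of Sftpb, the surfactant protein B gene without a promoter peak, 11.7 to 32.1 kb. Peaks between 1 and 3 kb from a TSS of a gene count as neither promoter nor distal. There were 42 with an epithelial gene as the nearest in CS1, 6 in CS2 and 3 in the Active Motif library. Per gene these were 0.933, 0.133 and 0.0667, against 0.214, 0.138 and 0.125 over all protein-coding genes.

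**Figure D5:**
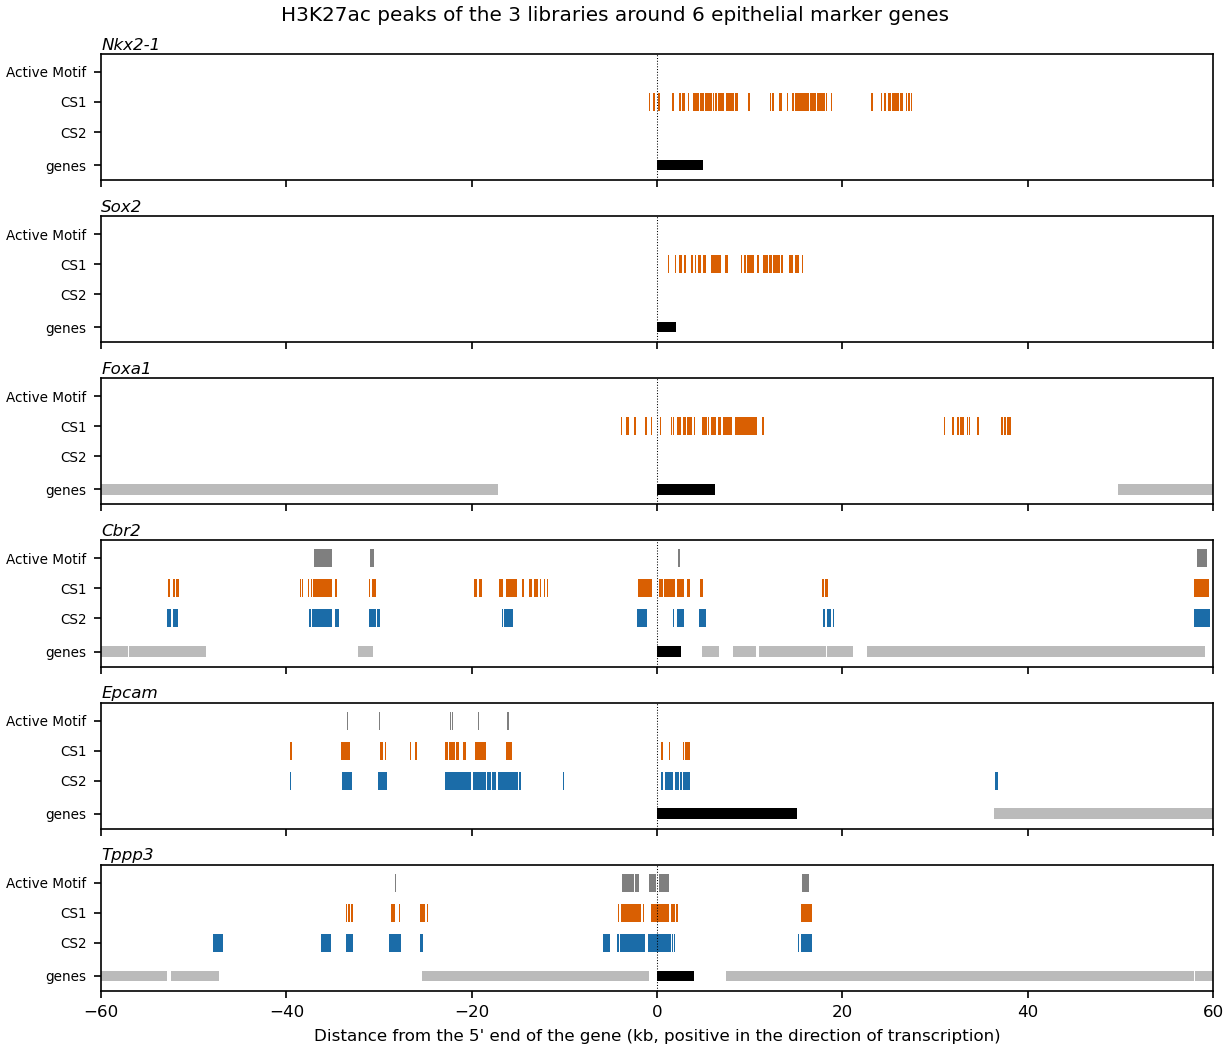
Peaks of the Active Motif (grey), CS1 (orange) and CS2 (blue) libraries as blocks along the distance from the 5′ end of 6 genes (horizontal axis, kb, from 60 kb upstream to 60 kb downstream in the direction of transcription), with the gene itself as a black bar and other protein-coding genes as grey bars. CS1 has 35 peaks around Nkx2-1, 21 around Sox2 and 29 around Foxa1 and the other libraries none, whereas around Cbr2, Epcam and Tppp3 all 3 libraries have peaks.

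A few epithelial genes had distal peaks in every library. Epcam had 6 in the Active Motif library, 12 in CS1 and 10 in CS2, all intergenic and upstream, with highest folds of 5.54, 16.9 and 26.7 in that order. Pdpn had peaks in its own introns in all 3 libraries, the strongest at chr4:143288209-143289463 in the Active Motif library with a fold of 24.3, which overlapped peaks of 34.98 in CS1 and 42.1 in CS2. Those folds exceeded the folds of 96.5%, 94.0% and 95.7% of all peaks of the same libraries. A peak in an intron of Kat8, with folds of 25.2 in the Active Motif library, 39.98 in CS1 and 36.6 in CS2, was given to Prss8 as the nearest TSS was that of Prss8. The distal peaks of St14 likewise lay in Aplp2. Those of Scgb1a1, in Ahnak, and of Spdef, in D17Wsu92e, were found in CS1 and CS2 and not in the Active Motif library, and only in part at shared sites. Of 3 Scgb1a1 peaks in CS1 and 4 in CS2, 1 and 2 overlapped no peak of another library. For Spdef these were 2 of 3 in CS1 and 0 of 1 in CS2. Esrp1 and Etv5 each had an intronic region marked in all 3 libraries, and Krt8 an intergenic one (folds of 6.28, 10.95 and 19.8). Tppp3 and Esrp2 each had a region in an intron of another gene, Lrrc36 and Nfatc3, marked in all 3 libraries. At Epcam, Pdpn, Prss8, St14, Esrp1, Etv5, Krt8, Tppp3 and Esrp2 at least 1 distal region was thus marked in all 3 libraries. At Nkx2-1, Sox2 and Foxa1 none was.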

How the data were processed

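H3K27ac HT-ChIPmentation was carried out on sorted AMs with 3 H3K27ac and 3 input libraries. According to the study's methods, Cutadapt trimmed the reads, Bowtie2 placed them on mm10, Picard marked duplicates, samtools dropped these and reads of low mapping quality, and MACS3 called the peaks of each library over its input (q-value of 0.05). Processing notes of the submitters also list bcl2fastq 2.20.0.422 and CASAVA.

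The deposited lists give per peak a score, a ratio (fold over background), a −log10 p-value, a −log10 q-value and a summit position. Peaks were described by fold and ranked or filtered by −log10 q. No read counts were used and the lists give no depth, so a count of peaks carries no interval.

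TSSs were the transcript starts of the GENCODE vM21 basic annotation plus the 5′ end of each gene. Overlap needed 1 bp, and the 3 kb distal limit follows the study. All 45 genes are accounted for. Folds are those of the peak with the highest −log10 q. The genes with printed promoters were taken by pattern, highest −log10 q first. Computation used Python 3.11.15, pandas 2.3.3 and numpy 2.4.6, and the overlap functions were tested on simulated data. The genes and lists were chosen with earlier results of these data known. The labels do not say whether the replicates came from separate animals. Settings varied were the q-value, the number of peaks, the window, the distal limit, the TSS set and the use of summits.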

Additional observations from a re-analysis of the deposited data

How the results depend on the processing

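Of 97 counts recomputed under other settings, for 14 results, 77 stayed within 1.5 times the reported count and 20 did not. The pattern of epithelial promoters marked in CS1 alone (24 genes) fell to 14 genes, against 0.708% of all genes, with only peaks of a q-value of at most 1e-05, and at 14, against 0.680%, with the same number of peaks in each library. The 10 lost were Aldh1a1, Cyp2f2, Grhl2, Muc16, Ovol1, Pigr, Rab25, Sftpd, Spdef and St14. With the stricter q-value, CS1 marked 8 airway and 6 general promoters, against 45.9% of all genes, and had 87 distal peaks. The Active Motif library then marked 0 alveolar promoters, against 37.8% of all genes, and had 12 distal peaks. With equal numbers of peaks, CS1 marked 8 airway and 6 general promoters, again against 45.9% of all genes, and had 88 distal peaks. In CS1, 26.5% of all genes had a distal peak with equal numbers of peaks and 26.4% with the stricter q-value. In the Active Motif library 17.1% had one with the stricter q-value. A window of 3 kb gave 2 airway genes in the Active Motif library, 2 in CS2, and 1 general gene in the Active Motif library. The shares of all genes were then 42.6% in the Active Motif library and 50.9% in CS2. A window of 500 bp gave 1 general gene in CS2, against 48.7% of all genes. With the starts of all annotated transcripts, a setting chosen after seeing the data, the Active Motif library marked 2 airway genes and 1 general gene and had 14 distal peaks, while CS2 marked 2 airway genes and had 29 distal peaks. All these settings for the count in CS1 alone, those that gave 14 included, were added after seeing the data. The count was 19 to 26 with other windows, the 5′ end of the gene only, summits or all transcripts. The share of all genes was then 1.07% to 1.6%. Members marked in both Cell Signaling replicates ranged from 7 without replicate 1 to 29 without replicate 2, since 1 list then decides. The shares of all genes were then 49.2% and 48.2%. No paired analysis was possible because no result comes from a test. The cause of these changes was not tested.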

Other observations

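The genes outside the lists that CS1 alone marked included further transcription factor genes (genes chosen after their values were seen). Of the 293 genes with a promoter peak in CS1 alone, 24 (8.19%) were among the 45 epithelial genes, 10 (3.41%) among the other 57 epithelial genes and 0 in any other list. The 45 and the 57 were taken from 21755 protein-coding genes, and the other lists held only 12 to 20 genes each. Foxp2, a forkhead factor, had a fold of 11.0, and Mecom, a zinc finger factor, 8.46 with 8 distal peaks in CS1 and 0 in the other libraries. Otx1, a homeodomain factor, had 8.07, also with 8 distal peaks in CS1 alone, and Eya1, a transcriptional coactivator, had 6.97. Klf5, a zinc finger factor of many epithelia, had 32 distal peaks in CS1 and 0 in the other libraries, the most of any gene with none in those 2.

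Not all genes of this kind were epithelial markers. The highest fold of the 293 genes was that of Catsperd, a sperm ion channel subunit gene, at 17.3, and the third by q-value was Gm10800 with a fold of 2.46. Lymphocyte genes that were not on the lymphocyte list, chosen after their values were seen, were among the 293 too. Of the 12 genes on that list 0 were marked in CS1 alone, against 1.35% of all genes. Blnk had a fold of 6.54, Btla 5.77, Vpreb3 4.997, Cd5 4.23 and Il7r 2.99. In CS2, Btla had 2 distal peaks, Cd5 3 and Il7r 1, and Blnk and Vpreb3 had 0.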
